A study of Homo sapiens with 3 samples.

Results

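Peaks of the transcription factor ETS1 at promoters poor in CpG dinucleotides were described in SCC25, a human squamous carcinoma cell line of the tongue that is widely kept in culture. A peak was a member if it lay on chromosomes 1 to 22 or X, if its midpoint was within 500 bp of the canonical transcription start site (TSS) of a protein-coding gene, and if no such gene stood in a divergent pair, meaning a pair of genes on opposite strands whose TSSs are within 1000 bp. In addition, the 1000 bp centred on the TSS had to have a GC fraction below 0.55 or a CpG observed/expected ratio below 0.6. This ratio compares the number of CpG dinucleotides with the number that the C and G content would give. Of the 26970 peaks of the consensus list, 8295 lay at a canonical promoter and 1294 were members, which is 4.80% of the list and 15.6% of the promoter peaks. The other promoter peaks were 6188 at CpG-rich unidirectional promoters and 813 at bidirectional promoters. The members were nearest to 1292 genes, and 43 members had more than 1 gene within 500 bp.

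The data came from chromatin immunoprecipitation and sequencing (ChIP-Seq) of untreated SCC25 cultures. Of the 3 samples, 2 were precipitated with C20 and 1 with 501A, antibodies that are both directed against ETS1. No treatment, time course or genetic change separates these samples, and all of them are of 1 cell line. The deposited file gives the peaks shared across the 3 samples as positions alone. It holds no read depth, summit, score or value per sample, so that no spread between samples could be computed, the antibodies could not be compared and the list gives no depth behind a peak. Intervals are 95% intervals and cover the counting of promoters or peaks only. They are Wilson intervals for a share and Newcombe intervals for a difference of shares. For differences between paired windows they are Wald intervals from the pairs in which only 1 window holds the motif. Promoters and peaks of 1 cell line are not independent biological replicates, and the p-values measure only whether counts differ between sets of promoters. They come from Fisher's exact test (two-sided) or, for paired windows, the exact McNemar test, and are adjusted by the method of Benjamini and Hochberg.

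ETS1 is the founding member of the ETS family, whose proteins share a DNA-binding domain that reads a core of GGAA. The flanks of the core differ between family members and sites, and a CCGGAA form, which holds a CpG, is common close to the TSS of widely expressed genes. Promoters rich in CpG are usually those of housekeeping and widely expressed genes, whereas promoters that have lost most CpGs are typical of tissue-restricted genes, among them those of the epidermis, and more often hold a TATA box. ETS1 is also known to act beside AP-1 and RUNX factors at composite sites.

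A few of the member promoters are printed to show the forms in which the motifs occur, chosen as those earliest in the list for each set, outside annotated exons and under the peak. Each sequence is the 200 bp directly before the TSS, 5′ to 3′ on the strand of the gene, on the hg19 build. In the first 3, capitals mark the ETS core (AGGAAG or AGGAAA, either strand) and the AP-1 site (TGAGTCA, either strand). S100A2 encodes a calcium-binding protein of basal keratinocytes, at chr1:153538321-153538520 on the minus strand, TOR4A a torsin-family ATPase, at chr9:140171978-140172177 on the plus strand, and SPATA12 a testis gene, at chr3:57094492-57094691 on the plus strand.
S100A2: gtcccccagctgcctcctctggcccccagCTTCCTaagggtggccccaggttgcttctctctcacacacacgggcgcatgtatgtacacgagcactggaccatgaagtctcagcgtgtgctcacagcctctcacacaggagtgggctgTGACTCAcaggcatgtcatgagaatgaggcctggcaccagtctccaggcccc
TOR4A: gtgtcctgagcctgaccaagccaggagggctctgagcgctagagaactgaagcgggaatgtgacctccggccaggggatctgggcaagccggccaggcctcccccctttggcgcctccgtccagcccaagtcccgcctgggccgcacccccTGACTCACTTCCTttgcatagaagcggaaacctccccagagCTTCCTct
SPATA12: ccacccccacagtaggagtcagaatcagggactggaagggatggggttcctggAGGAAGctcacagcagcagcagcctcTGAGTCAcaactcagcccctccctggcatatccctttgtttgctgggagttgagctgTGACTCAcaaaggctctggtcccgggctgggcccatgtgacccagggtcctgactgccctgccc

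In the next 3, capitals mark the ETS core with CpG (CCGGAA, either strand). ZNF223 encodes a zinc finger protein, at chr19:44555989-44556188 on the plus strand, GATB a subunit of the mitochondrial glutaminyl-tRNA amidotransferase, at chr4:152682160-152682359 on the minus strand, and CCDC174 a nuclear coiled-coil protein, at chr3:14693069-14693268 on the plus strand.
ZNF223: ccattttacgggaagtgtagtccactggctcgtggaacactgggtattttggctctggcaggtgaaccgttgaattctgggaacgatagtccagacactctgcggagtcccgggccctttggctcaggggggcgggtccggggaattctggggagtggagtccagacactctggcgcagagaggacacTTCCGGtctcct
GATB: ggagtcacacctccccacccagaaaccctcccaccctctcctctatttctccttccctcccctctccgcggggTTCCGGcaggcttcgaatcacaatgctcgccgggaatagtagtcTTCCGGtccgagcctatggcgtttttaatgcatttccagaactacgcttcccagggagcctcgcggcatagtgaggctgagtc
CCDC174: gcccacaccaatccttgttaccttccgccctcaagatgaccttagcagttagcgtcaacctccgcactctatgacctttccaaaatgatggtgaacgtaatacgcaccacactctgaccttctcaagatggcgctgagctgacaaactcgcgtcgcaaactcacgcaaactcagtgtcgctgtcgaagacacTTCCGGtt

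In the last pair, capitals mark the ETS core and the TATA box (TATAAA on the gene strand, starting 40 to 20 bp before the TSS). H4C13 encodes a replication-dependent histone, at chr6:27841313-27841512 on the minus strand, and S100A9 a subunit of calprotectin, at chr1:153330130-153330329 on the plus strand.
H4C13: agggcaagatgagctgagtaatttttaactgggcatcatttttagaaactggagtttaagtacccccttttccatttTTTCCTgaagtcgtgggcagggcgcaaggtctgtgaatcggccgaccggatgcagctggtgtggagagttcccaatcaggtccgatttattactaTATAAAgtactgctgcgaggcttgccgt
S100A9: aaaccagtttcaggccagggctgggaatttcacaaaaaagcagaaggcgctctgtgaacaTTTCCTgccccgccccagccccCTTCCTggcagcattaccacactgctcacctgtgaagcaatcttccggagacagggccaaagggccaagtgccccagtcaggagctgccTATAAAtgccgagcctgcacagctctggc

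Among all 19819 canonical promoters, the same 200 bp held the ETS core in 35.3%, the ETS core with CpG in 17.4%, the AP-1 site in 2.49% and the TATA box in 3.91%. The base before GGAA is A in the first core and C in the second, so that 1 GGAA is never counted in both. A match of letters is a description of the sequence and not evidence of a bound site.

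The label of CpG-poor promoter fitted only a part of the members. The CpG ratio was below 0.6 at 667 members (51.5%), whereas the other 627 (48.5%) qualified by a GC fraction below 0.55 alone and kept a CpG ratio of 0.6 or over. The members were therefore described in 3 groups, made after these values had been seen by splitting at the rule's own limits. The low-GC group (GC below 0.55, CpG ratio 0.6 or over) held 627 peaks, with a median CpG ratio of 0.739. The low-CpG group (GC 0.55 or over, CpG ratio below 0.6) held 439 peaks, with a median ratio of 0.510. The group low in both held 228 peaks (17.6%), with a median ratio of 0.401. Only 72 members (5.56%) had a CpG ratio below 0.2.

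**Figure D1:**
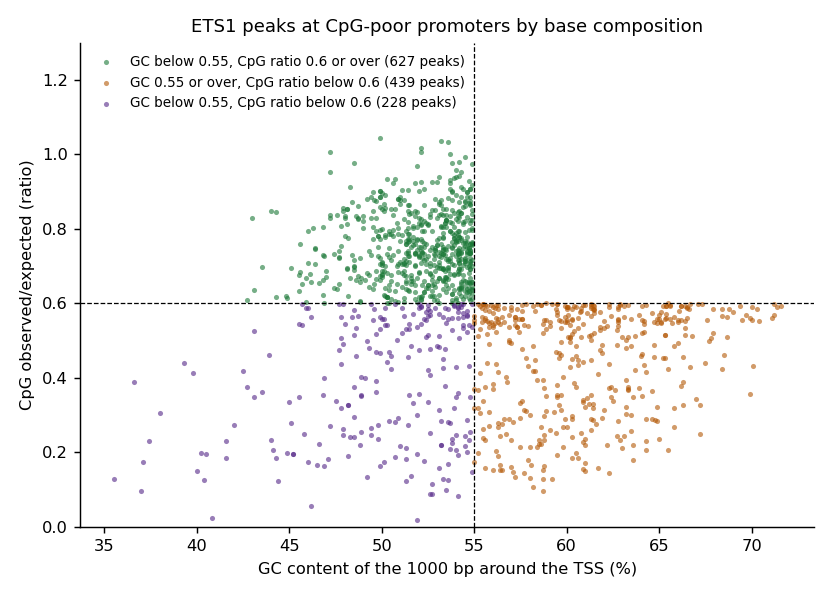
Each point is 1 of the 1294 member peaks, placed by the GC content (%) and the CpG observed/expected ratio of the 1000 bp around its TSS, with the limits of the rule as dashed lines. The 627 peaks of the low-GC group lie above a ratio of 0.6, the 439 of the low-CpG group to the right of 55% GC, and the 228 of the group low in both at the lower left.

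Many members lay close to a limit. In the low-GC group 364 peaks had a GC fraction of 0.52 or over, and in the low-CpG group 160 peaks had a CpG ratio of 0.55 or over. The members just inside the GC limit were those of AP2B1, ZBED6 and MTF2, each at 0.549, and ZSCAN31, POLR3B and TBC1D15 were just outside it at 0.55. For the CpG ratio, BACE1 (0.5999), TEFM (0.5996) and PSMB8 (0.5991) were inside, and ACP2 (0.6008), FAM185A (0.6012) and STX12 (0.6013) outside. For the distance, the peaks of ENSG00000255508 (497 bp), BCL2L1 (496 bp) and SMIM38 (492 bp) were inside, and those near CHRM1 (501 bp), FUT2 (504 bp) and SIDT1 (504 bp) outside.

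How often ETS1 occupied such promoters was asked next. Of 7518 CpG-poor promoters, 1343 had a peak midpoint within 500 bp of the TSS (17.9%, interval 17.0 to 18.7%), against 6402 of 10424 CpG-rich unidirectional promoters (61.4%, interval 60.5 to 62.3%). For comparison, 82.4% of the promoters in divergent pairs and 46.9% of all canonical promoters had a peak. The share at CpG-poor promoters differed from that at CpG-rich promoters by -43.6 percentage points (interval -44.8 to -42.3, Fisher's exact test over promoters). The number of promoters with a peak is larger than that of members because a promoter also counted when the peak was nearer to the TSS of another gene.

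This difference was not shared by all CpG-poor promoters. In the low-GC group 655 of 1050 promoters had a peak (62.4%, interval 59.4 to 65.3%), which is 0.965 percentage points above the CpG-rich promoters, with an interval of the difference from -2.15 to 3.99 (Fisher's exact test, adjusted exact p = 0.549). In the low-CpG group 452 of 2351 promoters had a peak (19.2%), and in the group low in both 236 of 4117 (5.73%). The low-GC share exceeded the low-CpG share by 43.2 points (interval 39.8 to 46.4, adjusted exact p = 7.68e-132), and the low-CpG share exceeded that of the group low in both by 13.5 points (interval 11.8 to 15.3, adjusted exact p = 1.82e-61). Thus the low shares were found at the promoters with a CpG ratio below 0.6, whereas that of the low-GC promoters lay close to that of the CpG-rich ones.

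The shares were also counted in ranges of the CpG ratio, with GC below 0.55 and with GC of 0.55 or over. Between ratios of 0.6 and 0.8, 58.9% of the promoters with GC below 0.55 (458 of 777, interval 55.4 to 62.4%) and 58.4% of those with GC of 0.55 or over (interval 57.1 to 59.8%) had a peak. Between 0.4 and 0.6 the shares were 19.1% (interval 16.3 to 22.4%) and 28.8% (interval 26.1 to 31.6%). Between 0.2 and 0.4 they were 4.27% (interval 3.41 to 5.32%) and 12.7% (interval 10.8 to 14.9%), and below 0.2 they were 2.34% and 9.85%. Between 0.8 and 1 they were 72.3% (interval 66.7 to 77.4%) and 64.1% (interval 62.8 to 65.4%). Thus below 0.6 the share was higher with the higher GC content, from 0.6 to 0.8 the intervals overlapped, and from 0.8 to 1 the share was higher with the lower GC content. Among promoters with a ratio of 0.6 or over, the share was 24.3% below 45% GC (9 of 37 promoters), 50.4% from 45 to 50%, 67.6% from 50 to 55% and 70.7% from 55 to 60%, and it was lower again above that, with 65.1%, 61.1% and 53.2% in the 3 highest bins.

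**Figure D2:**
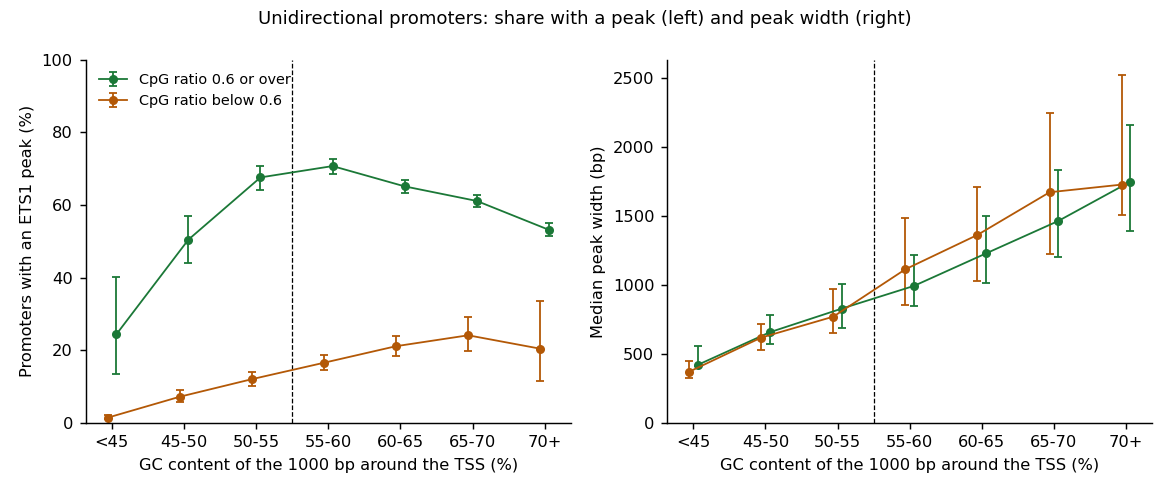
Left, the share of unidirectional promoters with an ETS1 peak (%, with Wilson intervals) and right, the median width of their peaks (bp, bars from the first to the third quartile), by GC content in 7 bins, for promoters with a CpG ratio of 0.6 or over (green) and below 0.6 (orange), with the GC limit of 55% as a dashed line. The 2 curves stand far apart on the left (67.6% against 12.01% at 50 to 55% GC) and close together on the right (829 against 770 bp).

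Width behaved differently from occupancy. The member peaks had a median width of 873.5 bp (quartiles 677 and 1182 bp, range 246 to 4559 bp), against 1354 bp at CpG-rich promoters. Of the members 490 (37.9%) were wider than 1000 bp, against 78.9% of the CpG-rich promoter peaks, a difference of -41.0 points (interval -43.8 to -38.1, Fisher's exact test, adjusted exact p = 2.41e-176 over the 4 properties compared). With a limit of 1500 bp the difference was -25.4 points (interval -27.6 to -23.04). The low-GC group, whose share with a peak was close to that of CpG-rich promoters, had narrower peaks, with a median of 790 bp and 22.3% wider than 1000 bp (-56.5 points against CpG-rich promoter peaks, interval -59.8 to -53.0). The low-CpG group had a median of 1272 bp and 72.0% wider than 1000 bp, a difference of -6.90 points from the CpG-rich peaks (interval -11.4 to -2.77, adjusted exact p = 0.00161 over 24 comparisons). The group low in both had a median of 674 bp and 14.9% wider than 1000 bp. Along GC content the median width at a CpG ratio below 0.6 was 370 bp below 45% GC, 618 bp from 45 to 50%, 770 bp from 50 to 55%, 1114 bp from 55 to 60% and 1673 bp from 65 to 70%. At a ratio of 0.6 or over the corresponding medians were 420, 657, 829, 993.5 and 1464.5 bp. Thus width moved with the GC content in both classes, and the part of sequencing and mapping of GC-rich fragments in this was not tested.

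The 8 widest members all belonged to the low-CpG group. The peak of NDUFA4L2, a mitochondrial protein gene induced by hypoxia, measured 4559 bp (chr12:57628969-57633527), and that of FBXL19, an F-box protein gene, 4264 bp (chr16:30932313-30936576). The peaks of PPP1R18, ESRP1, TRERF1, SMIM38, PPP1R13L and RPS6KA4 measured between 3594 and 4099 bp. ESRP1 is a splicing regulator of epithelial cells, and PPP1R13L encodes iASPP, an inhibitor of p53. The midpoints of 7 of these 8 peaks lay upstream of the TSS by 243 to 492 bp, and that of PPP1R18 lay 231 bp downstream.

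The list is not sorted by position in the genome, and none of the sources used states its order. The first 13485 peaks held 812 members (62.8%) and 61.0% of the CpG-rich promoter peaks, a difference of 1.73 points (interval -1.199 to 4.596, adjusted exact p = 0.345). The groups differed, with 74.5% of the low-GC group, 53.5% of the low-CpG group and 48.2% of the group low in both among these peaks. The low-GC group exceeded the CpG-rich peaks by 13.5 points (interval 9.71 to 16.9, adjusted exact p = 3.3e-11) and the group low in both differed from them by -12.8 points (interval -19.3 to -6.20, adjusted exact p = 0.000278). The earliest members were FBXL19 at position 10, ING4 at 17 (a tumour suppressor that reads histone H3 methylation), MRPL24 at 29 (a mitochondrial ribosomal protein), ZNF225 at 51, FAM83A at 66, ZNF223 at 87, PAFAH2 at 104 and ZNF165 at 136.

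With respect to the TSS, the midpoint of 443 members (34.2%) lay upstream, against 33.4% of CpG-rich promoter peaks, a difference of 0.815 points (interval -1.98 to 3.69, Fisher's exact test, adjusted exact p = 0.582). The groups went in opposite directions. The upstream share was 28.1% in the low-GC group (-5.35 points against CpG-rich promoter peaks, interval -8.93 to -1.53, adjusted exact p = 0.00919). It was 39.6% in the low-CpG group (6.22 points, interval 1.59 to 11.0, adjusted exact p = 0.0120). In the group low in both it was 40.8% (7.37 points, interval 1.08 to 14.0, adjusted exact p = 0.0269). Over all members the median midpoint lay 58 bp downstream, and 1272 members (98.3%) covered the TSS. Other peaks were close more often. Another peak lay within 10 kb of 509 members (39.3%) and of 30.4% of CpG-rich promoter peaks, a difference of 8.92 points (interval 6.05 to 11.8, adjusted exact p = 1.34e-09). With a limit of 50 kb the difference was 4.65 points (interval 2.03 to 7.15). Among the groups the share was highest in the low-CpG group, where 59.2% had a neighbour within 10 kb (28.8 points above CpG-rich promoter peaks, interval 24.01 to 33.5, adjusted exact p = 1.81e-32). The low-GC group, at 26.2%, differed from them by -4.26 points (interval -7.74 to -0.504, adjusted exact p = 0.0321), and the group low in both, at 37.3%, by 6.87 points (interval 0.739 to 13.4, adjusted exact p = 0.0367).

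The sequence under the peaks was then compared with windows of the same length 5000 bp further on the plus strand that overlapped no peak, in 200 bp centred on the midpoint. Of the 1294 members 1247 had such a control window. The ETS core with CpG was in 22.7% of the member windows and 1.60% of the controls, a difference of 21.1 points (interval 18.7 to 23.5, exact McNemar test, adjusted exact p = 1.14e-64 over 9 motifs). The ETS core AGGAAG or AGGAAA was in 44.03% and 36.8%, a difference of 7.22 points (interval 3.38 to 11.1, adjusted exact p = 0.000503). With other settings this difference was larger, at 11.8 points in windows of 600 bp and 15.2 points for GGAA with any flank. The AP-1 site was in 3.77% and 3.13%, a difference of 0.642 points (interval -0.816 to 2.099, adjusted exact p = 0.451). Member windows had a mean GC content of 60.8% and control windows 44.7%, and motifs that hold CpG or GC-rich letters are more frequent in GC-rich sequence. The GC box GGGCGG, for instance, was in 33.7% and 5.05%. Ranked by odds ratio against the controls, CCGGAA was at 21 of 1771 words of its length. Words with CpG but without GGAA stood before it, with CCGCGA first (9.30% and 0.160%). In the low-GC group CCGGAA was at 40 of 1878 words.

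Either ETS core was found in 743 of the 1294 member windows (57.4%), and 293 (22.6%) held 2 or more, with up to 5 in 1 window. Among all 26958 peaks on these chromosomes, 43.9% of such windows held the ETS core, 11.8% the ETS core with CpG and 12.1% the AP-1 site. The members held the ETS core with CpG more often than this, in 22.5% of all their windows, and the AP-1 site less often, in 3.94%. At CpG-rich promoter peaks these 2 motifs were in 19.4% and 1.07% of the windows. An ETS core of either form and an AP-1 site stood together in 34 members (2.63%), and 534 members (41.3%) had none of these letters within 100 bp of the midpoint. The counts of either core, of several cores and of joint sites were made for members alone. They are descriptions without a share over all peaks beside them. The earliest members with the ETS core and the AP-1 site were those of ZNF235, PPP2R5B, C15orf62, RPL24 and SLC25A45.

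Against the CpG-rich promoter peaks, the pairs in which only 1 of the windows held a motif were compared. The ETS core was in the peak window alone in 346 member pairs and in the control alone in 256 (ratio 1.35), whereas at CpG-rich promoter peaks the ratio was 0.789. For the AP-1 site the ratios were 1.21 and 0.314, and for the RUNX site TGTGGT 0.624 and 0.297. The TEAD site GGAATG had ratios of 0.795 and 0.513, and the GC box 9.93 and 46.4. The rule sets the classes by GC and CpG content. A lower ratio of the GC box, a GC-rich word with a CpG, at members is thus in large part set by the rule. So, in part, are the higher ratios there of the words named before it, which hold A and T. The rule bears as well on the ETS core with CpG, the E-box CACGTG and the CRE core TGACGT, which each hold a CpG. Their ratios were 21.2 and 12.8, 2.11 and 2.03, and 3.72 and 3.38. The CCAAT box gave 0.710 and 0.568. No test of any of these ratios is given, because the rule sets the classes by the same letters, and no difference is read from them. CpG-rich peak windows had a mean GC content of 70.3%, and its part in these ratios was not tested.

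Among the groups, the difference of the ETS core without CpG from its controls passed the test in the group low in both and did not in the other two. Whether these differences differ from each other was not tested. The core was in 52.9% of the peak windows and 30.3% of the controls of the group low in both, a difference of 22.6 points (interval 13.6 to 31.7, exact McNemar test, adjusted exact p = 1.16e-05), against differences of 3.10 points in the low-GC group (interval -2.24 to 8.43, adjusted exact p = 0.316) and 5.08 points in the low-CpG group (interval -1.73 to 11.9, adjusted exact p = 0.247). By distance from the midpoint, in steps of 50 bp, this core was not concentrated at the centre of the peaks. In the group low in both it was in 33.3% of the peaks from 0 to 50 bp and 30.7% from 250 to 300 bp. These shares were 24.4% and 24.4% in the low-GC group, and 26.7% and 27.1% in the low-CpG group. The ETS core with CpG exceeded its controls in each group, by 29.4 points in the low-GC group (adjusted exact p = 1.9e-46), 12.8 points in the low-CpG group (adjusted exact p = 5.35e-13) and 13.6 points in the group low in both (adjusted exact p = 2.72e-06). The AP-1 site was in 1.59% of the low-GC windows, 4.33% of the low-CpG windows and 9.65% of those low in both, and the first minus the last gave -8.05 points (interval -12.6 to -4.603, Fisher's exact test, adjusted exact p = 4.21e-06). Since the groups were set by CpG and GC content, an order among them in motif shares is partly fixed by the rule. This holds most directly for motifs with a CpG.

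Promoters of each group with and without a peak were then set side by side, from 250 bp before to 50 bp after the TSS. In the low-GC group the ETS core with CpG was in 46.7% of 655 promoters with a peak and 14.9% of 395 without, a difference of 31.8 points (interval 26.4 to 36.8, Fisher's exact test, adjusted exact p = 3.12e-26 over 10 motifs). Of the other motifs with a CpG, none passed the test there. The GC box was in 47.8% and 42.3% (difference interval -0.712 to 11.6, adjusted exact p = 0.282) and the CRE core in 15.3% and 14.7% (interval -4.02 to 4.90, adjusted exact p = 0.859). The E-box was in 9.62% and 8.10% (interval -2.20 to 4.92, adjusted exact p = 0.622). The ETS core without CpG was in 57.7% and 55.7% (interval -4.14 to 8.19, adjusted exact p = 0.625). The median GC content was 52.5% with a peak and 51.6% without, and the median CpG ratios were 0.740 and 0.705. These values cover 1000 bp around the TSS. The part of composition in the motif shares, there or nearer the TSS, was not tested.

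**Figure D3:**
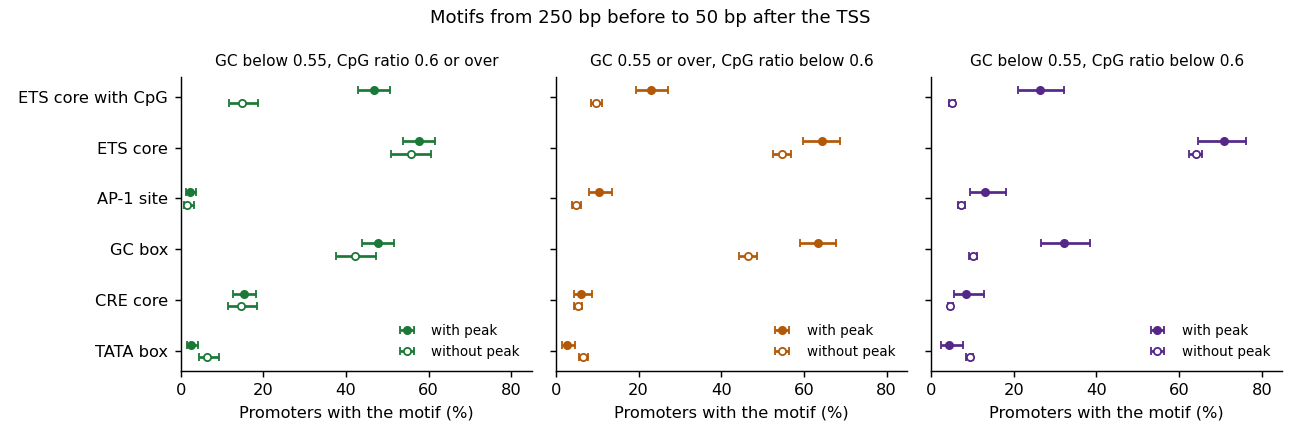
Share of CpG-poor promoters (%) that hold each of 6 motifs between 250 bp before and 50 bp after the TSS, with a peak (filled) and without one (open), with Wilson intervals, in the 3 groups. The ETS core with CpG stands apart in each group (46.7% against 14.9%, 23.01% against 9.79% and 26.3% against 5.02%), and the TATA box is lower with a peak in each.

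Read the other way round, 306 of the 365 low-GC promoters with the ETS core with CpG had a peak (83.8%, interval 79.7 to 87.3%), against 349 of 685 without it (50.9%, interval 47.2 to 54.7%). Restricted to promoters with a GC fraction of 0.50 to 0.55 and a CpG ratio of 0.6 to 0.8, where the median GC content was 53.1% both with and without a peak and the median CpG ratios were 0.708 and 0.691, the shares were 84.2% (181 of 215) and 54.1% (198 of 366), a difference of 30.1 points (interval 22.7 to 36.8). In the same promoters the GC box went with shares of 66.0% and 64.4%. At CpG-rich promoters the ETS core with CpG went with 78.1% and 55.4%.

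In the low-CpG group the ETS core with CpG was in 23.01% of 452 promoters with a peak and 9.79% of 1899 without, a difference of 13.2 points (interval 9.30 to 17.5, adjusted exact p = 8.56e-12). The ETS core without CpG was in 64.4% and 54.8% (difference 9.61 points, interval 4.58 to 14.4, adjusted exact p = 0.000538), and the AP-1 site in 10.4% and 4.90% (difference 5.50 points, interval 2.79 to 8.78, adjusted exact p = 0.000111). In the group low in both the ETS core with CpG was in 26.3% of 236 promoters with a peak and 5.02% of 3881 without (difference 21.2 points, interval 16.0 to 27.2, adjusted exact p = 1.2e-23), the AP-1 site in 13.1% and 7.24% (difference 5.90 points, interval 2.07 to 10.9, adjusted exact p = 0.00701), and the ETS core without CpG in 70.8% and 64.0% (difference 6.78 points, interval 0.505 to 12.4, adjusted exact p = 0.0595). In these groups the composition also differed. The median CpG ratio was 0.509 with a peak and 0.329 without in the low-CpG group, and 0.410 and 0.217 in the group low in both, and its part in the motif shares was not tested. The GC box was likewise higher with a peak, at 63.5% against 46.5% and 32.2% against 10.05%.

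Over all CpG-poor promoters together, neither the ETS core without CpG (62.2% with a peak, 60.6% without, interval of the difference -1.26 to 4.47, Fisher's exact test, adjusted exact p = 0.324) nor the AP-1 site (6.92% and 6.15%, interval -0.617 to 2.36, adjusted exact p = 0.324) passed the test. This pool mixes the groups. The low-GC group held 655 of the 1343 promoters with a peak and 395 of the 6175 without. With a peak, 2.29% of its promoters held the AP-1 site, against 13.1% of those low in both. Differences over the pool thus depend in part on this mix. Within 500 bp on each side of the TSS the difference of the AP-1 site was 2.30 points (interval 0.178 to 4.57, adjusted exact p = 0.0511). The TATA box was in 2.90% of the promoters with a peak and 8.29% of those without, a difference of -5.39 points (interval -6.44 to -4.15, adjusted exact p = 2.3e-13). Within the low-GC group, the low-CpG group and the group low in both the differences were -3.73, -3.98 and -5.06 points (adjusted exact p = 0.0253, 0.0015 and 0.0167). Of 551 CpG-poor promoters with a TATA box 39 had a peak (7.08%), against 18.7% of those without one. At CpG-rich promoters the TATA box was also lower with a peak, at 1.42% against 2.69% (Fisher's exact test, adjusted exact p = 1.28e-05). Among the earliest members with a TATA box were those of H4C13, S100A9, RPL22L1 and SAA1 (serum amyloid A).

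The ETS core with CpG was concentrated close to the TSS where there was a peak. In the 50 bp directly before the TSS it was in 23.7% of the low-GC promoters with a peak (155 of 655) and 5.06% of those without. From 50 to 100 bp before the TSS the shares were 10.7% and 2.53%, in the 50 bp after it 13.1% and 3.54%, and from 50 to 100 bp after it 4.43% and 2.78%. In the same 50 bp before the TSS, 10.4% of the low-CpG promoters with a peak and 2.74% without held it, and 12.3% and 1.44% of those low in both. At CpG-rich promoters these shares were 13.2% and 4.05%. The core had no preferred direction at the low-GC promoters with a peak, where 78 held CCGGAA and 83 TTCCGG on the gene strand in the 50 bp before the TSS. In the printed sequences of ZNF223 and CCDC174 the core ends within 20 bp of the TSS. By contrast, the ETS core without CpG was in 16.0% of the low-GC promoters with a peak in that bin and between 8.85% and 14.5% in the other bins to 300 bp on either side. At the promoters low in both the AP-1 site was in 5.08% of those with a peak from 100 to 50 bp before the TSS, and in 1.44% of those without.

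**Figure D4:**
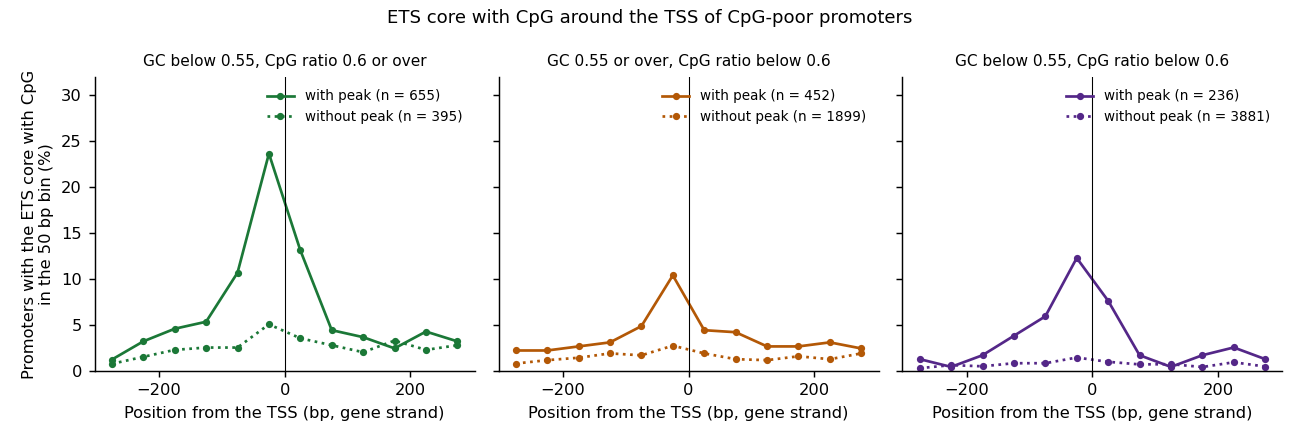
Share of CpG-poor promoters (%) with the ETS core with CpG in bins of 50 bp, by distance from the TSS on the gene strand (bp), for promoters with a peak (solid) and without one (dotted), in the 3 groups. The highest point in each group is the bin directly before the TSS with a peak, at 23.7%, 10.4% and 12.3%.

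Promoters of long noncoding RNA genes were not part of the rule. A long noncoding RNA gene started on the opposite strand within 1000 bp upstream at 117 of the 1343 CpG-poor promoters with a peak (8.71%) and 134 of 6175 without (2.17%), a difference of 6.54 points (interval 5.09 to 8.20, Fisher's exact test, adjusted exact p = 3.1e-26). In the low-GC group these shares were 12.1% and 5.82% (adjusted exact p = 0.00101), in the low-CpG group 6.86% and 3.11% (adjusted exact p = 0.000883), in the group low in both 2.97% and 1.34% (adjusted exact p = 0.0798), and at CpG-rich promoters 17.9% and 10.1%. The difference within each group of CpG-poor promoters, at most 6.24 points, was smaller than over all of them, and the low-GC group held 655 of the 1343 promoters with a peak and 395 of the 6175 without.

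Gene families were counted against the background of 17.9% of CpG-poor promoters with a peak, without a test. Of 26 lists, 5 had a Wilson interval wholly above this share and 9 an interval wholly below it. This background mixes groups with shares of 62.4%, 19.2% and 5.73%. Each list was therefore also set beside the share that its promoters would have at the shares of their groups, called the group-based share. Of the lists, 5 had an interval wholly above their group-based share and 4 an interval wholly below it, but they were not all the same lists. The lists above 17.9% included the cytosolic ribosomal proteins, with a peak at 13 of 15 CpG-poor promoters (86.7%, interval 62.1 to 96.3%, group-based share 59.5%), the S100 proteins, with 8 of 17 (47.1%, interval 26.2 to 69.0%, group-based share 13.7%), and the zinc finger genes, with 70 of 164 (42.7%, interval 35.4 to 50.3%, group-based share 30.9%). These 3 also lay above their group-based share. The replication-dependent histones, with 21 of 38 (55.3%, interval 39.7 to 69.9%), did not, since 36 of the 38 were in the low-GC group and their group-based share was 59.8%. The list made for the AP-1 family had only 3 such promoters, of which ATF6 and BATF2 had a peak. Its interval (20.8 to 93.9%) included its group-based share of 29.1%. ATF6 is not an AP-1 protein in the strict sense, but it counted toward the place of this list above 17.9%. The reads were kept by the authors only if they mapped to 1 locus, so that promoters with near-identical copies, among them those of histone, zinc finger and keratin genes, can lack reads.

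**Figure D5:**
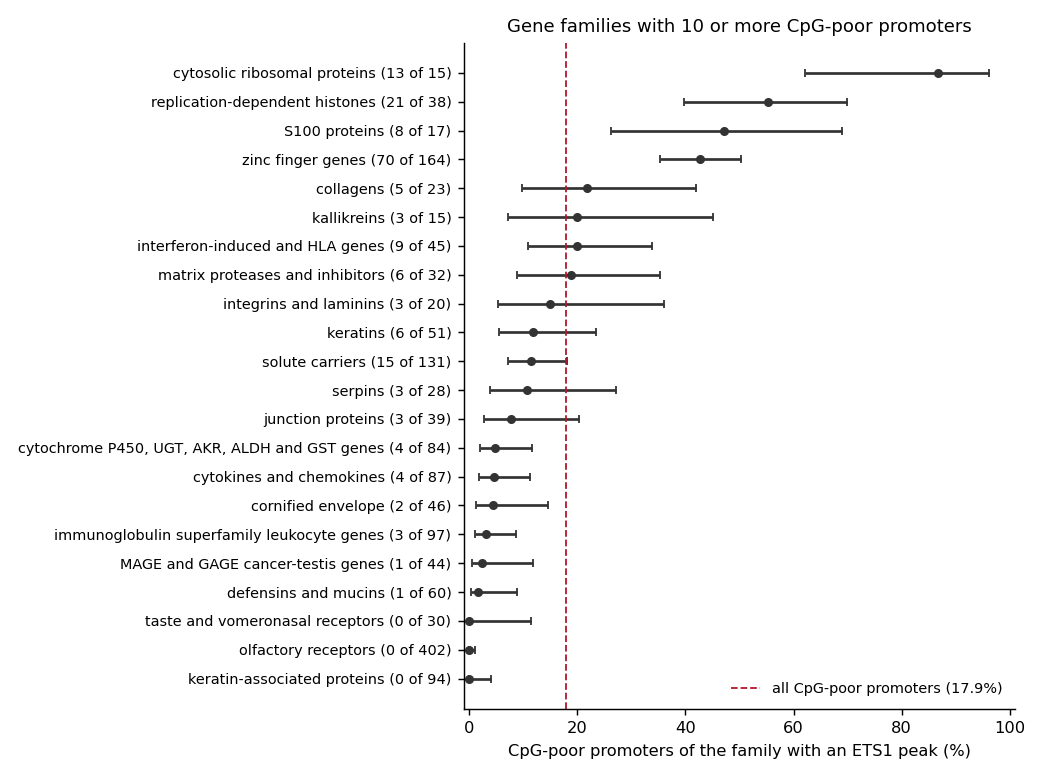
Share of the CpG-poor promoters with an ETS1 peak (%, with Wilson intervals) for each gene family with 10 or more CpG-poor promoters, with the number of promoters in brackets and the share over all CpG-poor promoters (17.9%) as a dashed line. The ribosomal protein, histone, S100 and zinc finger genes lie above the line, and the olfactory, taste and vomeronasal receptor and keratin-associated protein genes have no peak.

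These families belonged to different groups. The ribosomal protein promoters with a peak were all in the low-GC group (13 of its 14), and so were all 21 histone promoters (of 36). RPS26 (position 320, 1393 bp) and RPS27 (position 1530, 1164 bp) held the ETS core with CpG in the 200 bp at the midpoint, and RPL24 (position 1684, 1000 bp) held the ETS core and an AP-1 site. RPL32 (1028 bp) and RPL11 (1668 bp) were the other ribosomal protein genes among the 5 earliest. The histone members H4C13, H4C3, H4C8, H4C1 and H4C9 had peaks of 914 to 1751 bp. Of the zinc finger promoters with a peak 44 (of 64) were in the low-GC group, 15 (of 37) in the low-CpG group and 11 (of 63) in the group low in both. Chromosome 19 carried 109 members, of which 38 were nearest to a zinc finger gene. Of its 621 CpG-poor promoters 114 had a peak (18.4%, interval 15.5 to 21.6%), near the 17.9% over all CpG-poor promoters. ZNF225, ZNF223, ZNF226 and ZNF224 are neighbours on that chromosome at positions 51, 87, 283 and 360 of the list, with peaks of 748 to 1411 bp, and 3 of them held the ETS core with CpG at the midpoint, whereas ZNF225 held the ETS core without it.

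By contrast, the S100 promoters with a peak, genes of calcium-binding proteins, were depleted of CpG, with 6 of 10 in the low-CpG group and 2 of 7 in the group low in both. The peak of S100A2 (chr1:153537797-153539472) was 1676 bp wide at position 361, and its promoter had a CpG ratio of 0.107. S100A9 (756 bp, position 2019), S100A3 (1746 bp, 9179), S100A11 (1071 bp, 9304) and S100A6 (2220 bp, 10804) followed. All but S100A6 held the ETS core without CpG at the midpoint, and S100A6 held the core with CpG. Another peak lay within 500 bp of S100A2 (136 bp away), S100A11 (382 bp) and S100A6 (417 bp).

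Other gene families of the squamous epithelium had shares near the background or below it. Of the keratins, the intermediate filament proteins of epithelia, 6 of 51 CpG-poor promoters had a peak (11.8%, interval 5.51 to 23.4%, group-based share 11.3%), all of them in the low-CpG group. KRT75 (753 bp) held the ETS core at the midpoint, and KRT80 (2013 bp), KRT17 (793 bp), KRT16 (697 bp) and KRT8 (1198 bp) held no ETS core there. KRT17 and KRT16, which are near-identical in part of their sequence, had a TATA box. Of the cornified envelope genes 2 of 46 had a peak (4.35%, interval 1.201 to 14.5%, group-based share 6.91%). They were SPRR1B, a cross-linked envelope precursor, with a peak of 369 bp (chr1:153003327-153003695) that held the ETS core and an AP-1 site at a CpG ratio of 0.0241, and LCE1E with a peak of 650 bp. The keratin-associated proteins, which are hair proteins, had 0 of 94, which allows a share of up to 3.19% (3 counts of the total, as for the other counts of 0, and for counting error only). Their group-based share was 9.32%. Junction proteins had 3 of 39 (7.69%, interval 2.65 to 20.3%, group-based share 11.3%), among them GJB5 and CLDN12. Kallikreins, proteases of the stratum corneum, had 3 of 15 (20%, group-based share 17.4%), KLK6, KLK8 and KLK10.

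Genes of the matrix and its remodelling lay near the background. Collagens had a peak at 5 of 23 CpG-poor promoters (21.7%, interval 9.66 to 41.9%), namely COL7A1 and COL17A1, which anchor the epidermis to its basement membrane, and COL4A5, COL1A1 and COL8A1. The COL17A1 peak (chr10:105845811-105846187) was 377 bp wide, and its midpoint lay 361 bp upstream of the TSS. Integrins and laminins had 3 of 20 (15.0%), among them ITGA5, whose product is part of a fibronectin receptor, with a peak of 2305 bp, and LAMB3, a laminin chain of the epidermal basement membrane, with a peak of 2498 bp. Matrix proteases and their inhibitors had 6 of 32 (18.8%), among them MMP9 (1112 bp, CpG ratio 0.0949) and TIMP1 (622 bp), each with the ETS core, MMP7 (275 bp) with a TATA box and no ETS core, and MMP19 (654 bp) with an AP-1 site. Serpins had 3 of 28 (10.7%), among them SERPINB5, with a peak of 416 bp and an ETS core at the midpoint, and SERPINA1, with a peak of 1052 bp and no ETS core there. Of 4 genes of the TGF-beta list 2 had a peak, among them TGFBI (interval 15.0 to 84.996%, group-based share 12.5%).

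Cytokine and chemokine genes had a peak at 4 of 87 CpG-poor promoters (4.598%, interval 1.80 to 11.2%, group-based share 9.64%), all of them in the group low in both. These were IL6, IL23A, TNFSF15 and TNFSF10, with widths of 787, 834, 497 and 528 bp, and each held the ETS core at the midpoint. Interferon-induced and HLA genes had 9 of 45 (20%, interval 10.9 to 33.8%), above their group-based share of 9.63%, with a peak at 7 of 13 promoters of the low-CpG group. IRF9, a subunit of the interferon-activated ISGF3 complex, had a peak of 2238 bp with 4 ETS cores in 200 bp, and IFI27L2, ISG20, OAS2 and PSMB8 followed in the list. Leukocyte genes had 3 of 97 (3.09%, interval 1.06 to 8.70%, group-based share 10.4%), CD14, FCGRT and CD274, the gene of PD-L1, whose peak was 388 bp wide.

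Several other families had few peaks at their CpG-poor promoters or none. Olfactory receptors had 0 of 402, which allows a share of up to 0.746%, against a group-based share of 6.26% (396 of them were low in both). Taste and vomeronasal receptors had 0 of 30, which allows up to 10% (group-based share 6.18%). Defensins and mucins had 1 of 60 (MUC1, 1596 bp, interval 0.295 to 8.86%, group-based share 7.53%), and MAGE and GAGE genes 1 of 44 (MAGEB2, 544 bp, group-based share 17.9%). Annexins had 0 of 5, which allows up to 60% (group-based share 11.1%). Detoxification genes of the cytochrome P450, UGT, AKR, ALDH and GST families had 4 of 84 (4.76%, interval 1.87 to 11.6%, group-based share 10.1%), ALDH3B2, CYP4F11, GSTK1 and ALDH3B1. Solute carriers had 15 of 131 (11.5%, interval 7.06 to 18.0%, group-based share 14.4%), among them SLC25A53, SLC2A9, SLC25A45, SLC30A6 and SLC38A7. Of these lists, only the olfactory receptors and the MAGE and GAGE genes lay wholly below their group-based share. Whether the genes without a peak are transcribed in SCC25 cannot be read from the list.

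Of the EMT transcription factors 1 of 3 CpG-poor promoters had a peak, that of SNAI2 (33.3%, interval 6.15 to 79.2%, group-based share 29.1%). Of the genes that the study follows, 5 had a CpG-poor promoter. AXL, a receptor kinase of mesenchymal cells, had a member of the low-CpG group, 2628 bp wide (chr19:41724236-41726863) with a midpoint 421 bp downstream of the TSS and an ETS core there, at a promoter with a CpG ratio of 0.318. SNAI2, which encodes the EMT factor Slug, had a member of the low-GC group, 1004 bp wide, with an ETS core. The canonical promoters of VIM (low-GC, CpG ratio 0.794), TP63 (low in both, 0.365) and ETS1 itself (low in both, 0.242) had no peak midpoint within 500 bp. CDH2, EGFR and SOX9 had CpG-rich promoters and were outside the rule. A gene can have other promoters, and only the canonical TSS was used here.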

How the data were processed

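ETS1 ChIP-Seq of untreated SCC25 cells was carried out by the authors in 3 samples, 2 with the C20 and 1 with the 501A antibody. Per the methods and the submitters' processing notes, they mapped reads to hg19 with Bowtie 1.1.1, keeping reads with 1 locus, merged files with SAMtools 1.3, used MACS2 with a merged input for peak calling and IDR to keep the reproducible ones. The authors deposited 1 list of peaks with 3 columns (chromosome, start from 0, end) for the pool of samples. It has no signal or depth. Since reads with several loci were dropped and the list is pooled, near-identical promoters can lack peaks, and neither a sample nor a depth can be set against a result.

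Promoters were the canonical TSSs of 19819 protein-coding genes of GENCODE 44 on GRCh37, the same nuclear sequence as hg19. Counts of promoters were compared with Fisher's exact test (two-sided) and paired windows with the exact McNemar test, with Benjamini-Hochberg adjustment within each family of comparisons. The properties of peaks formed a family of 4, the motifs at peaks of 9 and those at promoters of 10. Gene families were counted without a test.

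The members, gene lists, motifs and named genes were chosen with earlier results of these data known. The genes named were the 8 widest and 8 earliest members, up to 5 earliest members of each family, the 5 earliest with an ETS core and an AP-1 site or with a TATA box, those next to each limit, and genes the study follows; a few genes that the rule names are not reported here. The 3 groups by GC and CpG, the bins, the long noncoding RNA count, the group-based shares of families and the position of the cores were added after values had been seen. Alternatives changed the distance, limits, windows, controls, TSS, motif letters and part of the list. The code was tested on simulated data. The code ran under Python 3.11.15 (scipy 1.17.1, statsmodels 0.14.6, pysam 0.24.0, pandas 2.3.3, numpy 2.4.6, samtools 1.23.1).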

Additional observations from a re-analysis of the deposited data

How the results depend on the processing

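The lower occupancy of CpG-poor than of CpG-rich promoters kept its direction and passed the test under every alternative tried, with differences between -26.3 and -49.0 percentage points. The share of CpG-poor promoters with a peak moved with the definition, to 14.2% with a distance of 250 bp, 20.8% with 1000 bp, 20.1% where the peak had to cover the TSS, 5.73% with both limits met, 12.5% with composition taken from 600 bp, 19.9% with divergent pairs kept, 15.7% with the most upstream TSS, 11.3% with the first 13485 peaks, and 19.2% without olfactory, taste, vomeronasal and KRTAP genes (the last chosen after seeing the data). The number of members became 228 with both limits met, 803 with 600 bp and 812 with the first 13485 peaks. With both limits met, the AP-1 site differed between promoters with and without a peak by 5.90 points. Set against the peaks of all other unidirectional promoters, the upstream share then differed by 7.46 points, the excess of neighbours within 10 kb, 5.49 points, no longer passed the test, and the share among the first 13485 peaks turned to -13.5 points. The upstream share turned to -0.789 points with a distance of 250 bp, where it passed no test. In the low-CpG group alone, chosen after seeing the data, the ETS core differed by 9.61 points and the AP-1 site by 5.50. Of 68 alternatives, the other 49 kept the direction and the side of the threshold, or a count within 1.5 times, although some moved the size. The occupancy difference was -30.7 points with a distance of 250 bp and -26.3 with the first 13485 peaks, the ETS core difference from control windows was 11.8 points in windows of 600 bp, 15.2 with GGAA and any flank and 21.1 with CCGGAA, the width difference was -25.4 points with a limit of 1500 bp, the neighbour difference 4.65 points with 50 kb, and the AP-1 difference with and without a peak 2.30 points within 500 bp of the TSS. Set beside group-based shares, chosen after seeing the data, 5 gene families lay above and 4 below. The cause of the changes was not tested, except that the limits and the part of the list alter which peaks are counted.

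No replicate was left out and no spread between samples is given, since the list is pooled. No paired analysis was possible because the list holds no value per sample. The list gives no depth, and a promoter without a peak is one without a detected peak in these libraries.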
